A study of Mus musculus with 2 samples.

Results

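The genes described here carry cholesterol into a steroid-making cell and turn it into progesterone. They were chosen by name, along the path from uptake to inactivation, as Scarb1, Star, Tspo, Cyp11a1, Fdx1, Fdxr, Por, Hsd3b1 and Akr1c18. Earlier results of these data were known when they were chosen. All 9 were measured, on 10 probes, among 20580 genes or unnamed transcripts on the array, and all 9 were among the 18535 that passed a background filter, which asked that 1 pool or the other be well above background on each of the arrays. Of those 18535, 8720 had a gene symbol.

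The RNA came from granulosa cells of female C57/Bl6 mice aged 23 to 25 d that had received pregnant mare serum gonadotropin (PMSG), a hormone preparation with follicle-stimulating activity, for 48 h. Cells were pooled by genotype into 1 Esr2+/- pool (het) and 1 Esr2-/- pool (null), so both pools came from animals that lack at least 1 working copy of the gene for estrogen receptor beta, and neither is wild type. The number of animals in a pool is not given in the sources used here. Array 1 carried the null pool in Cy5 and the het pool in Cy3, and array 2 carried the same RNA with the dyes exchanged. Because the arrays repeat 1 pool per genotype, each SD below covers hybridisation and dye but not animals, and no test or p-value was possible.

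Progesterone synthesis starts when cholesterol, taken up from lipoproteins or released from stores, reaches the inner mitochondrial membrane. There the side-chain cleavage enzyme makes pregnenolone with electrons passed along a short chain of a reductase and a ferredoxin. A 3-beta-hydroxysteroid dehydrogenase then turns pregnenolone into progesterone. In the follicle, granulosa cells gain this capacity as they mature under gonadotropins, and they become the main progesterone source once they luteinise.

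Cyp11a1 and Hsd3b1, the genes of the enzymes that make pregnenolone and progesterone, were lower in the null pool by 1.88-fold and 1.58-fold. Fdx1, the ferredoxin gene that serves the first enzyme, was 1.46-fold lower, just short of 1.5-fold. The genes for cholesterol uptake and mitochondrial entry, for the microsomal reductase and for progesterone breakdown had mean ratios within 0.1 log2 units of equality. Fdxr, the reductase gene of that electron chain, had a mean ratio of -0.22 that rested on array 1 in the processing used here. The probes for Star and Akr1c18 were close to background, where a ratio near 0 does not show that the pools were alike.

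The region just before the annotated start of 5 of these transcripts is printed here, for the 3 genes with the lowest ratios and, for comparison, for Por, whose ratio was closest to 0. Each is the 250 bases before the start in RefSeq (GRCm38.p6), written 5′ to 3′ on the gene's own strand, and capitals mark a GC box, GGGCGG or its reverse complement CCGCCC.
Cyp11a1 first start, chr9:57997774-57998023, plus strand: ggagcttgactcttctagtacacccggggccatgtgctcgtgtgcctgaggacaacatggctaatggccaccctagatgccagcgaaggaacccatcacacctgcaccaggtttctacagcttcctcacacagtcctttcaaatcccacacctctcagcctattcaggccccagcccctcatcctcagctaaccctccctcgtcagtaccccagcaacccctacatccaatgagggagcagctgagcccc
Cyp11a1 second start, chr9:58014702-58014951, plus strand: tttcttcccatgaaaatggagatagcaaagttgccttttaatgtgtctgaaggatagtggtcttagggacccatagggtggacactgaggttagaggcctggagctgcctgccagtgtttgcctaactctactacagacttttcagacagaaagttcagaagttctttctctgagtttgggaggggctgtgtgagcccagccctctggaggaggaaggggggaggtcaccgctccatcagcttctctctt
Fdx1, chr9:51963603-51963852, minus strand: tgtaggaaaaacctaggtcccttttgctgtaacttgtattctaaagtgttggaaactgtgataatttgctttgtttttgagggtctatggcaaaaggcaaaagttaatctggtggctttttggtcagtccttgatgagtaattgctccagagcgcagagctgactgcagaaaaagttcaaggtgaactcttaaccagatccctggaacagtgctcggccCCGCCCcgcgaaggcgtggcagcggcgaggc
Hsd3b1, chr3:98859795-98860044, minus strand: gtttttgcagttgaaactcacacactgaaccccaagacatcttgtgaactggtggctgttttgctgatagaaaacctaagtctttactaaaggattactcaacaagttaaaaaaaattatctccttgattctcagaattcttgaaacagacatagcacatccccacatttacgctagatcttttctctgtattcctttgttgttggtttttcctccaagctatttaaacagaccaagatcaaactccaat
Por, chr5:135688895-135689144, plus strand: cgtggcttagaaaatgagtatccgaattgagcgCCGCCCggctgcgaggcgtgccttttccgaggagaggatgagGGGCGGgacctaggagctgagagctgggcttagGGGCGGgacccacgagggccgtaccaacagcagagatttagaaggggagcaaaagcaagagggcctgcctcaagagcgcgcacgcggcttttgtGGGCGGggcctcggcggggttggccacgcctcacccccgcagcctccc
RefSeq promoter entries matched 6 of the 9 genes in 7 windows, with 2 annotated starts for Cyp11a1. The windows of Por and of the second Cyp11a1 start lie inside the gene intervals given below, and the Fdxr window overlaps its interval. Each of these precedes a start within the gene, not the upstream edge of the gene. The GC box was present in 4 of the 7 windows, those of Fdx1, Fdxr, Por and Akr1c18, and in 33.0% of all 32536 promoters of this length. In the Por window 4 GC boxes were found and in the Fdx1 window 1, whose first base lies 31 bases before the start. The windows of Cyp11a1 and Hsd3b1 held none. Searched on both strands, the binding motifs of the steroidogenic nuclear receptors of the NR5A group (CAAGGTCA, in 1.33% of all promoters, and CAAGGCCA, in 1.99%) were in 0 of the 7 windows. The same was true of the cyclic AMP response element TGACGTCA (1.56% of all promoters) and of the palindromic estrogen response element GGTCANNNTGACC (0.0645%). The last 2 motifs read the same on both strands, and CAAGGTCA and the estrogen response element share the letters GGTCA, so that their matches could overlap. A missing match says only that these letters are not in this window.

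Uptake and entry come first in the path. Scarb1 (NM_016741, chr5:125277087-125341094, GRCm38.p6) encodes scavenger receptor class B type 1, which takes cholesteryl esters from high-density lipoprotein. Its normalized log2 signal was 9.88 in the null pool and 10.02 in the het pool on array 1, and 9.57 and 9.55 on array 2. The arrays differed more from each other than the pools did, and the order of the pools was not the same on both. The log2 ratio, null over het, was -0.14 on array 1 and 0.03 on array 2, with a mean of -0.06 ± 0.12 (SD, n = 2 technical hybridisations, as for every SD below).

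Star (NM_011485, chr8:25808474-25815982) encodes the steroidogenic acute regulatory protein, which moves cholesterol to the inner mitochondrial membrane at what is often the limiting step. Its probe was dim. The mean spot intensity before any correction was 85.5 in the null pool and 70.9 in the het pool on array 1, against local backgrounds of 52 and 47, and 85.9 and 112 on array 2, against 46 and 53. The scanner software nonetheless marked all 4 of these signals as well above background. The log2 signal was 6.29 in the null and 6.34 in the het pool on array 1, and 6.36 and 6.35 on array 2. The order of the pools thus differed between the arrays. The ratio was -0.02 ± 0.04. Median centring turned it to 0.05 and the scanner's own processing gave -0.09, so no direction can be given for Star, and the offset used in background correction pulls a probe this dim toward 0.

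Tspo (NM_009775, chr15:83563573-83574203) encodes the translocator protein of the outer mitochondrial membrane, whose part in cholesterol import is disputed. Normalized log2 signals were 8.76 in the null pool and 8.90 in the het pool on array 1, and 9.03 and 9.05 on array 2. The null pool was the lower on each array, with ratios of -0.14 and -0.02. Its signal on array 2 lay above the het signal on array 1, a comparison that also carries the difference between the arrays. The mean ratio was -0.08 ± 0.08.

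The lowest ratio of the 9 genes was that of the side-chain cleavage enzyme. Cyp11a1 (chr9:57998024-58027031) encodes the mitochondrial cytochrome P450 that cuts the side chain from cholesterol to give pregnenolone. Before any correction, its brighter probe (NM_019779) had a mean spot intensity of 475 in the null pool and 447 in the het pool on array 1, where the null pool was in Cy5, and 208 and 987 on array 2, where the het pool was in Cy5. Cy5 was the brighter channel for this probe on both arrays, whichever pool it carried, so uncorrected intensities do not give the ratio of the pools. After normalization the log2 signal was 8.39 in the null pool and 9.42 in the het pool on array 1, and 8.30 and 9.09 on array 2. Both null values lay below both het values. The ratio was -1.03 on array 1 (2.04-fold lower in the null pool) and -0.79 on array 2 (1.73-fold lower), with a mean of -0.91 ± 0.17 (1.88-fold lower).

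A second probe, for the transcript AV205567, was assigned to Cyp11a1 through an older symbol in its description. It gave log2 signals of 7.69 in the null pool and 8.56 in the het pool on array 1, and 7.63 and 8.40 on array 2, again with both null values below both het values. The mean ratio of that probe was -0.82 ± 0.07 (1.77-fold lower), so the probes differed by less than the SD of the brighter one. With the scanner software's own log ratio the brighter probe gave -1.06 (2.09-fold lower) and the second probe -1.11 (2.15-fold lower), which places Cyp11a1 past 2-fold under that processing and short of it under the one used here. Of the 18535 genes, 24 had a ratio as low as or lower than that of Cyp11a1, itself included.

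**Figure D1:**
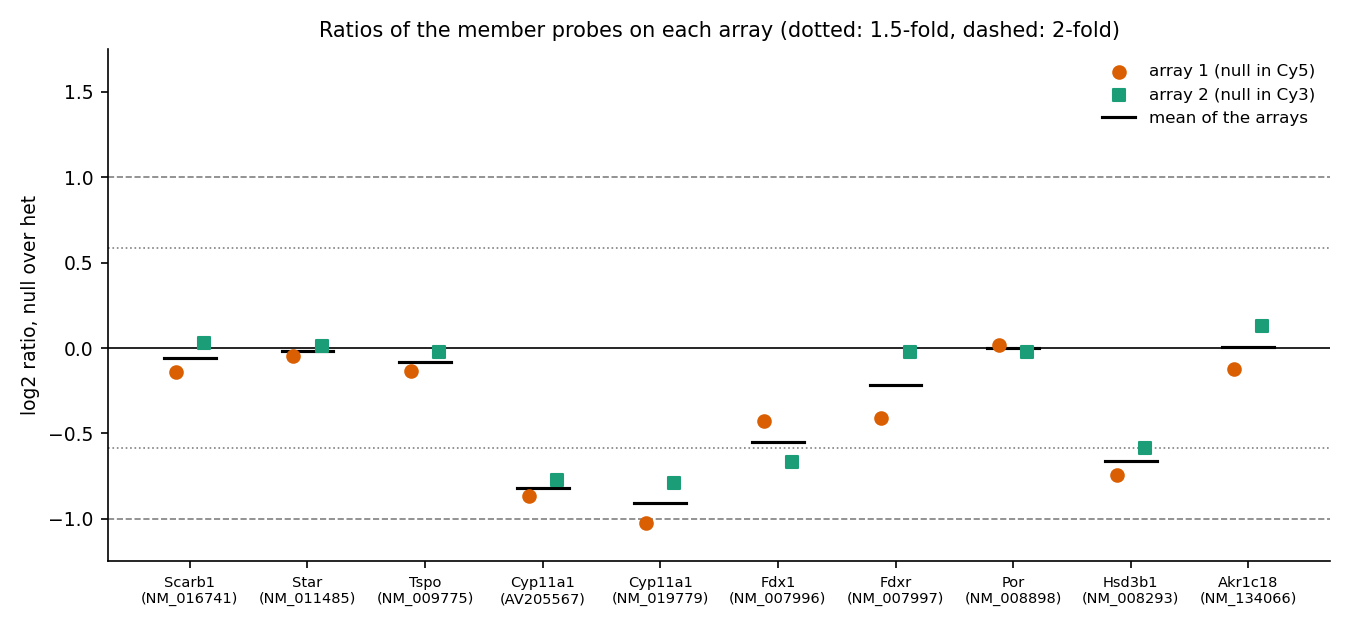
Log2 ratios, null over het, of the 10 probes on array 1 (circles) and array 2 (squares), with the mean of the arrays as a bar; dotted lines mark 1.5-fold and dashed lines 2-fold. Both Cyp11a1 probes, Fdx1 and Hsd3b1 lie well below 0 on both arrays, Fdxr is low on array 1 alone (-0.41 against -0.02), and the other probes lie close to 0.

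Fdx1 (NM_007996, chr9:51943023-51963602) encodes ferredoxin 1, also called adrenodoxin, the iron-sulfur protein that hands electrons to the side-chain cleavage enzyme. In the log2 signal, Fdx1 was at 9.37 in the null pool and 9.80 in the het pool on array 1, and 9.13 and 9.80 on array 2. The het values were nearly equal, and both null values lay below them. The ratio was -0.43 on array 1 and -0.67 on array 2, with a mean of -0.55 ± 0.17, and 91 genes had a ratio as low or lower, itself included. With the scanner software's log ratio it was -0.61 (1.53-fold lower). Median centring gave Fdx1 -0.006 on array 1 and -1.18 on array 2, so its drop on array 1 depended on the correction by brightness.

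Fdxr (NM_007997, chr11:115268024-115277101) encodes ferredoxin reductase, which draws electrons from NADPH and passes them to ferredoxin. Its log2 signals were 9.33 in the null pool and 9.74 in the het pool on array 1, and 9.38 and 9.40 on array 2. The null pool was clearly the lower on array 1, and on array 2 the pools were nearly equal. The arrays gave ratios of -0.41 and -0.02, with a mean of -0.22 ± 0.28, so the mean was smaller than its SD. Among the 9 genes, Fdxr had the largest SD between the dye orientations. Median centring gave Fdxr 0.009 on array 1 and -0.53 on array 2. Which array carried its drop thus depended on the correction by brightness.

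Por (NM_008898, chr5:135670040-135735326) encodes cytochrome P450 reductase, which supplies microsomal P450 enzymes and not the mitochondrial side-chain cleavage enzyme. The log2 signal was 9.22 in the null pool and 9.20 in the het pool on array 1, and 8.97 and 8.99 on array 2. The arrays gave ratios of opposite sign, 0.02 and -0.02. The SD of the ratio over the arrays was 0.03, the smallest of the 9 genes.

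Hsd3b1 (NM_008293, chr3:98842356-98859794) encodes a 3-beta-hydroxysteroid dehydrogenase that turns pregnenolone into progesterone. Its spots were among the brightest on the arrays and were not saturated, with mean intensities of 16987 in the null pool and 11414 in the het pool on array 1, and 6242 and 32818 on array 2. The log2 signal was 13.38 in the null and 14.12 in the het pool on array 1, and 13.52 and 14.10 on array 2. Both null values lay below both het values, and the values of each pool on the arrays were close together.

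The Hsd3b1 ratio was -0.74 on array 1 and -0.59 on array 2, with a mean of -0.66 ± 0.11 (1.58-fold lower in the null pool). Of all genes, 56 were as low or lower, itself included. Only 39 genes had a brighter probe, so few probes guided the dye correction at this brightness. With median centring, which makes no correction by brightness, the arrays gave -0.17 and -1.29, although their mean of -0.73 was close to that above. The mouse Hsd3b genes are close copies of each other, so the transcript behind this probe is uncertain. Of 6 other isoforms listed, 4 were on the array and 3 passed the background filter, and their ratios ranged from -0.16 to 0.07.

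Akr1c18 (NM_134066, chr13:4132615-4150646) encodes an aldo-keto reductase that inactivates progesterone by reducing it, an activity known from luteal cells. Its probe was dim, with a mean intensity of 96.6 in the null and 79.2 in the het pool on array 1, over local backgrounds of 51 and 47. The log2 signal was 6.45 in the null and 6.57 in the het pool on array 1, and 6.58 and 6.45 on array 2. The order of the pools turned with the dyes, and the ratios of -0.12 and 0.13 averaged to 0.00 ± 0.18.

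**Figure D2:**
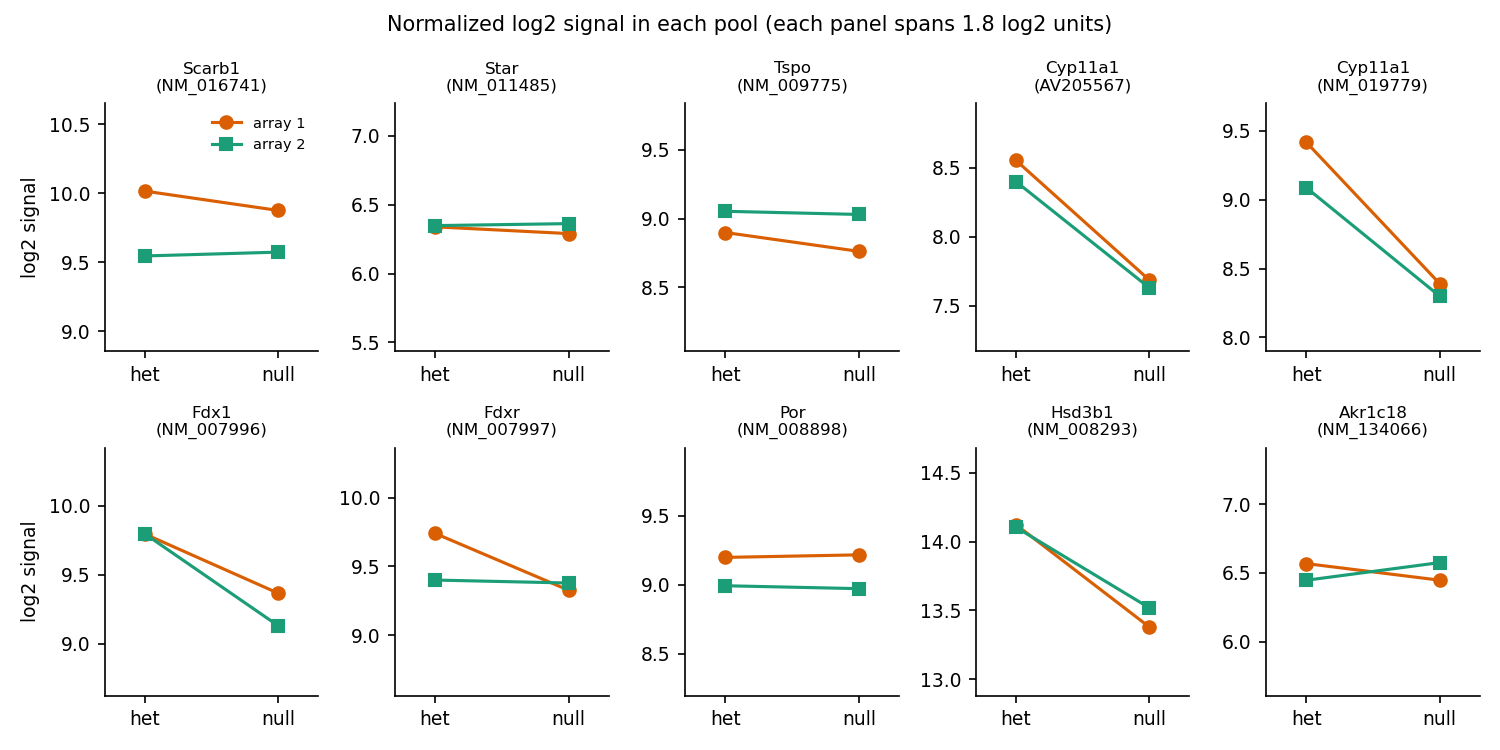
Normalized log2 signal of each probe in the het and null pools, with array 1 as circles and array 2 as squares joined by a line; each panel spans the same number of log2 units on its own axis range, so slopes can be compared between panels but levels cannot. The lines fall from het to null on both arrays for the Cyp11a1 probes, Fdx1 and Hsd3b1, and cross or run nearly level for Star, Por and Akr1c18.

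The 9 genes were then counted against all genes by 2 rules of size. Both the genes and the rules were chosen with earlier results of these data known, so the counts are description only. A gene met the 2-fold rule when its mean ratio reached 2-fold and neither array fell short of 1.5-fold in that direction. By that rule 0 of the 9 were lower in the null pool, against 0.0917% of all genes, and 0 were higher, against 0.0378%. A second rule asked for a mean of 1.5-fold or more, with 0.32 log2 units or more in that direction on each array. By it 2 of the 9, Cyp11a1 and Hsd3b1, fell, against 0.410% of all genes, and 0 rose, against 0.405%. Fdx1 lay just outside, since both arrays passed 0.32 log2 units but the mean was 1.46-fold. It met the rule in the scanner software's log ratios, in the series table and on array 2 alone, which makes 3 of the 9, whereas median centring left Cyp11a1 alone, or 1 of the 9.

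On sign alone, 5 of the 9 genes (Tspo, Cyp11a1, Fdx1, Fdxr and Hsd3b1) had a negative ratio on both arrays, against 24.3% of all genes. For Tspo and Fdxr the array 2 ratio was only -0.02, and with median centring both turned positive on array 1, leaving 3 of the 9. Fdx1 stayed among these 3 with only -0.006 on array 1, against -1.18 on array 2. As reported, none of the 9 had a positive ratio on both arrays, against 22.7%, and the arrays gave opposite signs for the other 4. The median ratio of the 9 genes was -0.08, with -0.14 on array 1 and -0.02 on array 2, beside a median of 0.00 over all genes. The lowest values thus belonged to a minority of the genes.

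**Figure D3:**
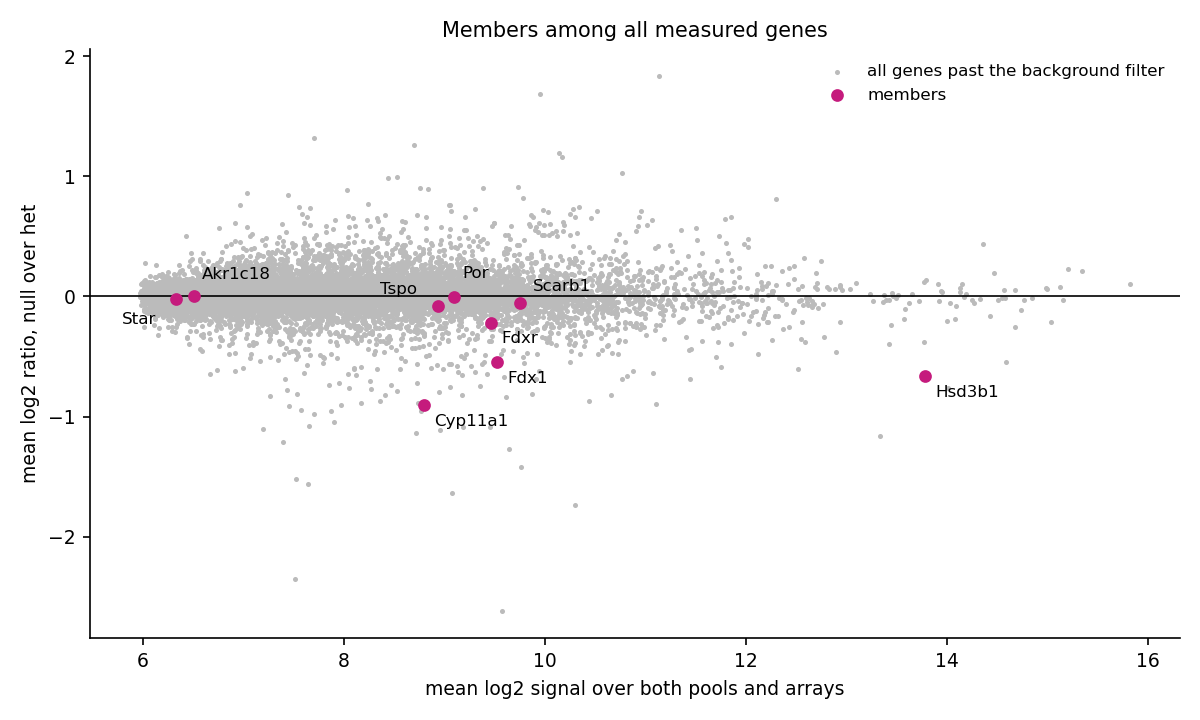
Mean log2 ratio, null over het, against mean log2 signal over both pools and arrays, for the 18535 genes past the background filter (grey) and the 9 genes (coloured and named). Cyp11a1 and Fdx1 lie below the dense band of genes, Hsd3b1 lies below 0 at the bright end where points are sparse, and Star and Akr1c18 sit at the dim end.

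The other genes of cholesterol handling and steroid synthesis were taken from 8 lists of 89 genes in all, of which 66 were on the array and 62 passed the background filter. By either rule, 0 of these 62 fell and 0 rose. Over all genes 0.410% fell and 0.405% rose by the 1.5-fold rule, and 0.0917% and 0.0378% by the 2-fold rule. A count of 0 among 62 is near those shares and does not set these genes apart. Ratios were negative on both arrays for 23 of the 62, against 24.3% of all genes. They were positive on both for 13, against 22.7%, and of opposite sign for 26, and their median was -0.01. In each list the gene farthest from 0 is named here.

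On the supply side, Plin2, which encodes a coat protein of lipid droplets, had 0.41 ± 0.01, with nearly the same value on both arrays. Apoa1, which encodes the main protein of high-density lipoprotein, had 0.39 ± 0.25, which the scanner software's log ratio put at 0.76. Dbi, the diazepam binding inhibitor gene whose product binds acyl-CoA and the translocator protein, had -0.45 ± 0.08. These values point in different directions along the supply of cholesterol, and all were under 1.5-fold here. The list of uptake and lysosomal release had a median of 0.12 over 10 genes, that of ester storage and efflux -0.02 over 7, and that of mitochondrial delivery -0.02 over 11.

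Among genes that supply electrons, Me1, which encodes the NADPH-making malic enzyme, had -0.32 ± 0.06, and the median over 8 genes was 0.07. Of the other isoforms of 3-beta-hydroxysteroid dehydrogenase, Hsd3b6 had -0.16 ± 0.31, with its arrays on opposite sides of 0. In the list of progesterone-reducing enzymes and relatives of Akr1c18, Akr1cl had 0.17 ± 0.03 and the median over 7 genes was 0.04. Cyp17a1, the hydroxylase and lyase gene that leads from progestogens to androgens, had -0.09 ± 0.03 on the brighter of its 2 probes. None of these sat near the ratios of Cyp11a1 and Hsd3b1.

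Of 14 measured regulators of steroidogenic genes, Nr5a2 was the farthest from 0. It encodes liver receptor homolog 1, a nuclear receptor known to drive steroidogenic genes in granulosa cells. Its ratio was -1.18 on array 1 and -0.19 on array 2, with a mean of -0.69 ± 0.70, so the arrays disagreed on its size and it met neither rule. The other 13 regulators had ratios between -0.17 and 0.05.

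**Figure D4:**
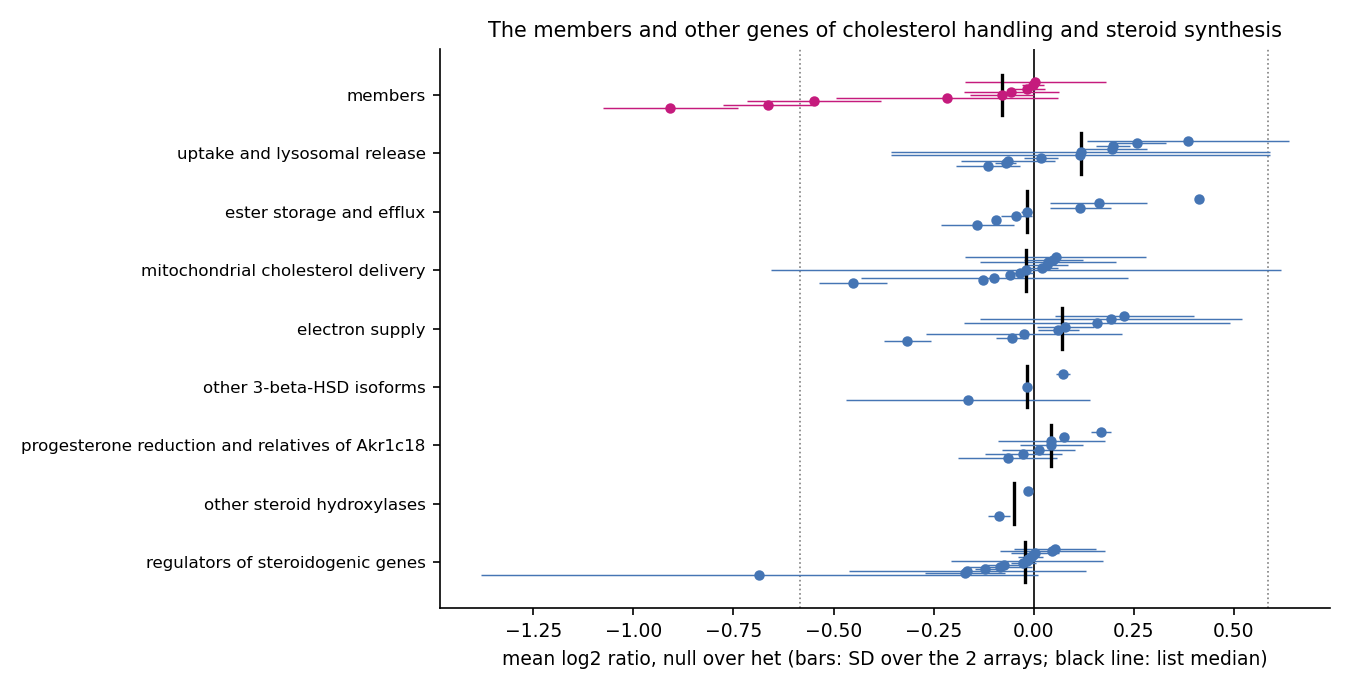
Mean log2 ratio, null over het, of the 9 genes and of the genes of 8 further lists, 1 point per gene with its SD over the 2 arrays as a line; black bars mark list medians and dotted lines 1.5-fold. The points for Cyp11a1 and Hsd3b1 lie past the lower dotted line, and the other point past it, Nr5a2, has an SD of 0.70.

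Markers of the cell types that such a preparation can hold were read beside these results. For every cell type count, the share of all genes by the 1.5-fold rule was 0.410% lower and 0.405% higher. By sign it was 24.3% negative and 22.7% positive on both arrays. A count of 0 by the 1.5-fold rule in lists this short is near those shares. Of 12 granulosa markers, the 8 on the array were all well above background in every channel. By the 1.5-fold rule 2 of them fell, Inhba (the inhibin and activin beta A subunit, -1.16 ± 0.50) and Fst (follistatin, -0.87 ± 0.47), and 0 rose. The list was mixed in sign, with 4 markers negative on both arrays, 3 positive on both and 1 of opposite sign. The positive ones were Kitl (KIT ligand) at 0.37 ± 0.17, Amhr2 (the receptor for anti-Müllerian hormone) at 0.35 ± 0.03 and Amh (that hormone) at 0.27 ± 0.21, and Inha (the inhibin alpha subunit) gave -1.34 and 0.36; these 4 were named after their values were seen. The median of the 8 was -0.71 for array 1 and 0.08 for array 2, so the arrays did not give the list 1 direction. Summed over the 8, the signal ratio was -1.17 and -0.47 on the log2 scale, a sum in which the bright Inhba probe weighs most. Fewer cells of a type and less RNA per cell cannot be told apart in pooled RNA.

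Theca and interstitial cells also express Cyp11a1 and a 3-beta-hydroxysteroid dehydrogenase. Of 8 of their markers 7 passed the filter, 0 fell and 0 rose by the 1.5-fold rule, and the summed ratio was -0.10 on array 1 and -0.09 on array 2. Within that list Cyp17a1 had -0.09 ± 0.03 on the brighter of its 2 probes, and the other probe was not read here. Insl3, a peptide hormone of theca cells, had -0.02 ± 0.02. Nr2f2, a nuclear receptor gene of the stromal lineage, was farthest from 0 at -0.27 ± 0.21. Most of these probes were dim, Insl3 among them at log2 signals of 6.40 to 6.47, where the offset pulls ratios toward 0. The scanner software put Nr2f2 at -0.46, Enpep at -0.48 and Tcf21 at 0.49, so dim markers of this list went both ways. Cyp17a1, the brightest probe of the list, weighs most in the summed ratio.

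Of 7 luteal markers 3 passed the filter, 1 of them Akr1c18 itself, and Prlr, the prolactin receptor gene, fell (-0.96 ± 0.26), whereas Lhcgr, the luteinizing hormone receptor gene, had -0.13 ± 0.18 on a probe as dim as that of Star and -0.51 in the scanner software's processing. Oocyte markers went the other way. All 11 that passed, of 15 listed, had positive ratios on both arrays and 5 rose by the 1.5-fold rule, among them Gdf9 (0.81 ± 0.30) and Zp2 (0.66 ± 0.15), and their summed ratio was 0.83 and 0.52. In the macrophage, endothelial, stromal, surface epithelial and erythroid lists 0 genes fell and 0 rose by that rule. The genes farthest from 0 were Lyz2 at 0.46 ± 0.05, Egfl7 at -0.17 ± 0.01, Dcn at 0.39 ± 0.06, Cdh1 at 0.49 ± 0.01 and Hbb-bt at 0.21 ± 0.44. The scanner software put them at 0.73, -0.19, 0.48, 0.83 and 0.22. For the bright erythroid list the summed ratio was -0.73 on array 1 and 1.04 on array 2, so it turned with the dyes. The part of granulosa, theca, luteal and oocyte cells in the lower ratios of Cyp11a1, Fdx1 and Hsd3b1 was not tested. The Esr2 probe (NM_010157) had -0.48 ± 0.03, and since it is not known whether it lies in the deleted stretch, it does not check the genotype labels.

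**Figure D5:**
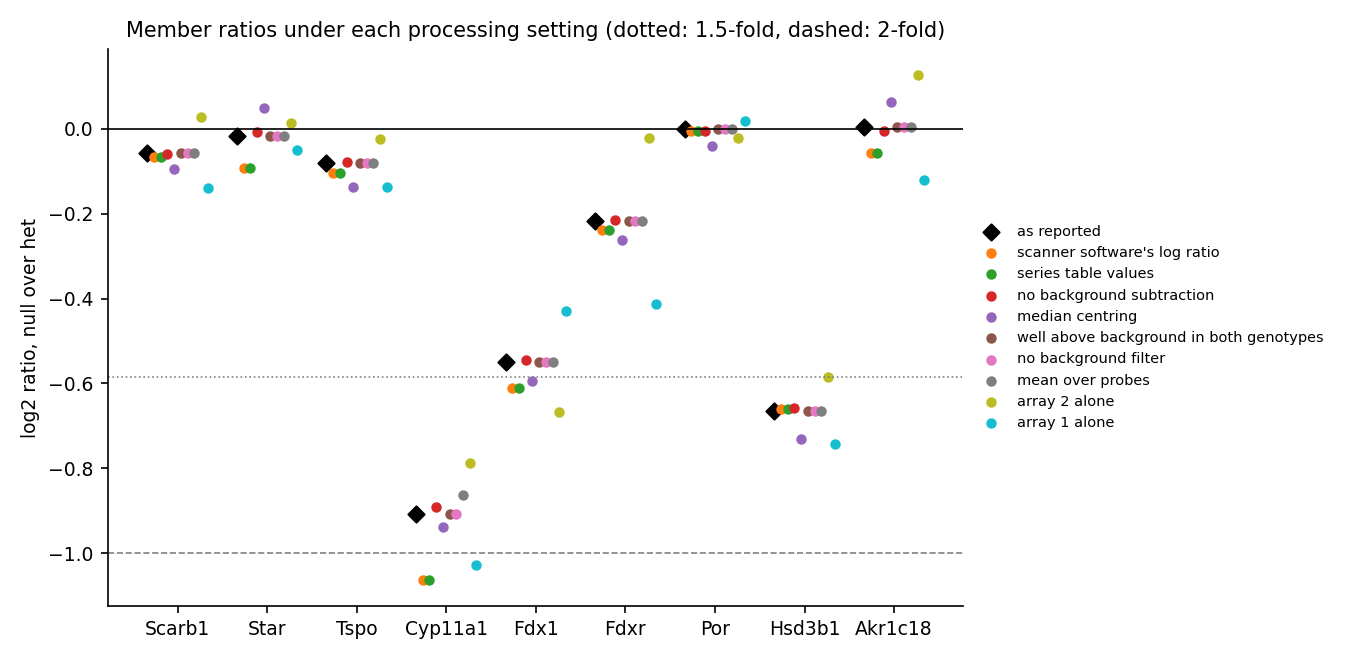
Mean log2 ratio, null over het, of each of the 9 genes as reported (black diamond) and under 9 other settings (coloured points), with dotted and dashed lines at 1.5-fold and 2-fold. Cyp11a1, Fdx1, Fdxr, Hsd3b1 and Tspo stay below 0 in all of them, whereas Star, Por, Scarb1 and Akr1c18 lie on both sides of 0. Some points repeat others, since the background filters leave a ratio unchanged and the series table repeats the scanner log ratio.

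Across the 9 other settings the ratio of Cyp11a1 ranged from -1.06 to -0.79, that of Hsd3b1 from -0.74 to -0.59 and that of Fdx1 from -0.67 to -0.43. These ranges did not reach those of Scarb1 (-0.14 to 0.03), Star (-0.09 to 0.05), Tspo (-0.14 to -0.02), Por (-0.04 to 0.02) and Akr1c18 (-0.12 to 0.13). Fdxr, from -0.41 to -0.02, spanned the gap between these groups. Each value in these ranges is a mean over both arrays or 1 array after the correction by brightness. On single arrays with median centring the groups overlapped. There Fdx1 gave -0.006 and Hsd3b1 -0.17 on array 1, and Scarb1, Tspo and Por each gave -0.50 on array 2. Not all 9 settings are separate readings. A stricter or absent background filter cannot change a ratio, and averaging probes changed only Cyp11a1. The series table repeats the scanner log ratio, and each array alone is a part of the mean.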

How the data were processed

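Gene expression was compared between 1 Esr2-/- and 1 Esr2+/- granulosa cell RNA pool on 2 dye-reversed 2-colour Agilent arrays. Per the labels' protocols, 500 ng of total RNA was amplified into dye-labelled cRNA, and 750 ng of each was hybridised for 17 h. The deposited scanner files give the mean spot intensity and the median local background intensity of each channel, as written by Agilent Feature Extraction A.7.5.1 per the file headers. Their deposited log ratio is log10 of red over green after that software's background subtraction and dye normalization. The deposited series table holds log2 red over green, which lay within 0.001 of the scanner log ratio for 99.8% of spots, with medians of 0 and 0.0022.

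Intensities were corrected with normexp (offset 50) and normalized by loess within each array in R 4.3.3 with limma 3.58.1, with control spots at weight 0. Spots flagged as outliers (58 and 95 of 21318) were dropped. Between 87.2% and 95.0% of spots were well above background in a channel. Array 2 was turned in sign and the arrays were averaged as 1 replicate. Signals per channel were taken after Aquantile normalization. Genes were counted with pandas 2.3.3 and numpy 2.4.6 under Python 3.11.15, and the counting was tested on simulated data.

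Of 20868 probes, the RefSeq table of GRCm38.p6 named 8947 through their accession and 754 through their description, and 11167 kept the files' name. The brightest probe stood for the 142 genes with several. The 9 genes, the lists and the rules were chosen with earlier results of these data known. Named were all 9 genes, Esr2, and, in each list, up to 4 genes (2 for cell types) past the 1.5-fold rule, or the 1 farthest from 0, plus theca and luteal genes that bear on a result. Over all genes, which are not replicates, the ratios of the arrays correlated at r = 0.32. Probe sequences and proteins were not used here.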

Additional observations from a re-analysis of the deposited data

How the results depend on the processing

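Each of the 9 genes was read under 9 other settings: array 1 alone, array 2 alone, median centring, uncorrected background, the log ratios of the scanner software or of the series table, probes averaged per gene, and a background filter that was stricter or absent. The number lower by the 2-fold rule, 0 as reported, was 1 (Cyp11a1) with the scanner log ratio and with the series table, and ranged from 0 (array 2 alone) to 1 (array 1 alone) when an array was left out. With median centring the number lower by the 1.5-fold rule was 1 in place of 2, because Hsd3b1 then differed between the arrays, and with the scanner log ratio, the series table and array 2 alone it was 3, with Fdx1 added. Median centring made the number negative on both arrays 3 in place of 5. Star and Por moved by more than their SD, Star to -0.09 with the scanner log ratio and 0.05 with median centring and Por to -0.04 with median centring. Over all genes, 17 were lower and 7 higher by the 2-fold rule as reported, against 45 and 26 with the scanner log ratio or series table and 40 and 12 with array 1 alone. Array 2 alone gave 10 and 7. By the 1.5-fold rule 76 were lower and 75 higher as reported, against 169 and 189 with the scanner log ratio or series table, 153 and 103 with array 1 alone and 63 and 34 with median centring. The cause of these shifts was not tested. Signal close to background limits what can be said of Star, Akr1c18, Lhcgr and most theca markers. No paired analysis was possible because each genotype was a single pool.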
